A study of Homo sapiens with 8 samples.

Results

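ATP-binding cassette (ABC) genes were described in hCMEC/D3, a line of human brain microvascular endothelial cells in which the blood-brain barrier is studied in culture. The members were all genes of the deposited table whose symbol is ABC, a subfamily letter from A to G and a number, which gave 46 of 23346 listed genes. They fell into subfamilies A (12), B (9), C (12), D (4), E (1), F (3) and G (5). Polyadenylated RNA was sequenced in 8 replicate libraries for which the labels name no treatment or time point, so the libraries formed 1 group and levels were compared between genes of the same libraries. The line is an immortalised clone, and the labels do not say whether the replicates were separate cultures, so p-values measure only the spread between these libraries, which may be technical. In bulk RNA, fewer expressing cells and less RNA per cell cannot be told apart.

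ABC proteins share a nucleotide-binding domain that binds and hydrolyses ATP, and in most of them this drives a substrate across a membrane. In brain capillary endothelium, P-glycoprotein (ABCB1), BCRP (ABCG2) and several multidrug resistance-associated proteins (ABCC genes) return drugs and toxins to the blood, while ABCA1 and ABCG1 move cholesterol out of the cell. Other members work in peroxisomes, mitochondria or lysosomes, and subfamilies E and F lack membrane-spanning parts and act on ribosomes and translation. The members were therefore grouped by role: 11 efflux pumps, 17 lipid and sterol transporters, 3 peroxisomal, 4 mitochondrial and 2 lysosomal transporters, 2 channel regulators, 4 non-transport members and 3 of other or unclear role.

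The libraries held 69388544 to 90205244 counts, all even, so 2 counts were taken as 1 read pair. Counts were scaled to CPM, the counts of a gene per 1000000 counts of the library, with TMM library sizes, and to RPKM, which is CPM per kilobase of the gene's canonical transcript, wherever genes were compared with each other. The labelled cell type was checked against marker genes. All 9 endothelial markers had at least 1 CPM in every library, with a summed level of 2182 to 4203 CPM. Of 8 mural cell markers 5 passed the same threshold (summed 163 to 189 CPM), and ANPEP alone, with 99.5 to 143 CPM, made up most of that sum. Of 6 epithelial markers 1 passed it (summed 4.40 to 5.51 CPM). None of 6 astrocyte, 6 microglial and 4 hepatocyte markers did, with sums of at most 1.46 CPM and AQP4 and P2RY12 at 0. The libraries also differed by transcript length: per doubling of length, log2 CPM deviated by between -0.33 in replicate 8 and 0.14 in replicates 1, 3, 4 and 6, with -0.22 in replicate 2 and -0.10 in replicate 7. ABC transcripts are long (a median of 5205 nt and 28 exons in the detected members, against 3351.5 nt and 9 exons in all detected genes), so the pair ratios that differed most in replicates 2 and 8 are also given without them.

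Most of the family was detected. A gene was called detected when it had at least 1 CPM in all 8 libraries, which 31 of the 46 members (67.4%) and 51.3% of all listed genes did. All 4 mitochondrial, both lysosomal and all 4 non-transport members were detected, with 7 of 11 efflux pumps, 11 of 17 lipid and sterol transporters, 2 of 3 peroxisomal transporters, 1 of 2 channel regulators and 0 of 3 members of other or unclear role. By subfamily this was 10 of 12 in A, 6 of 9 in B, 6 of 12 in C, 3 of 4 in D, the member of E, all 3 of F and 2 of 5 in G. The members nearest to the threshold were ABCA9, whose lowest library had 1.02 CPM, just inside, and ABCB5, with a mean of 1.00 CPM and a lowest library of 0.655 CPM, just outside.

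**Figure D1:**
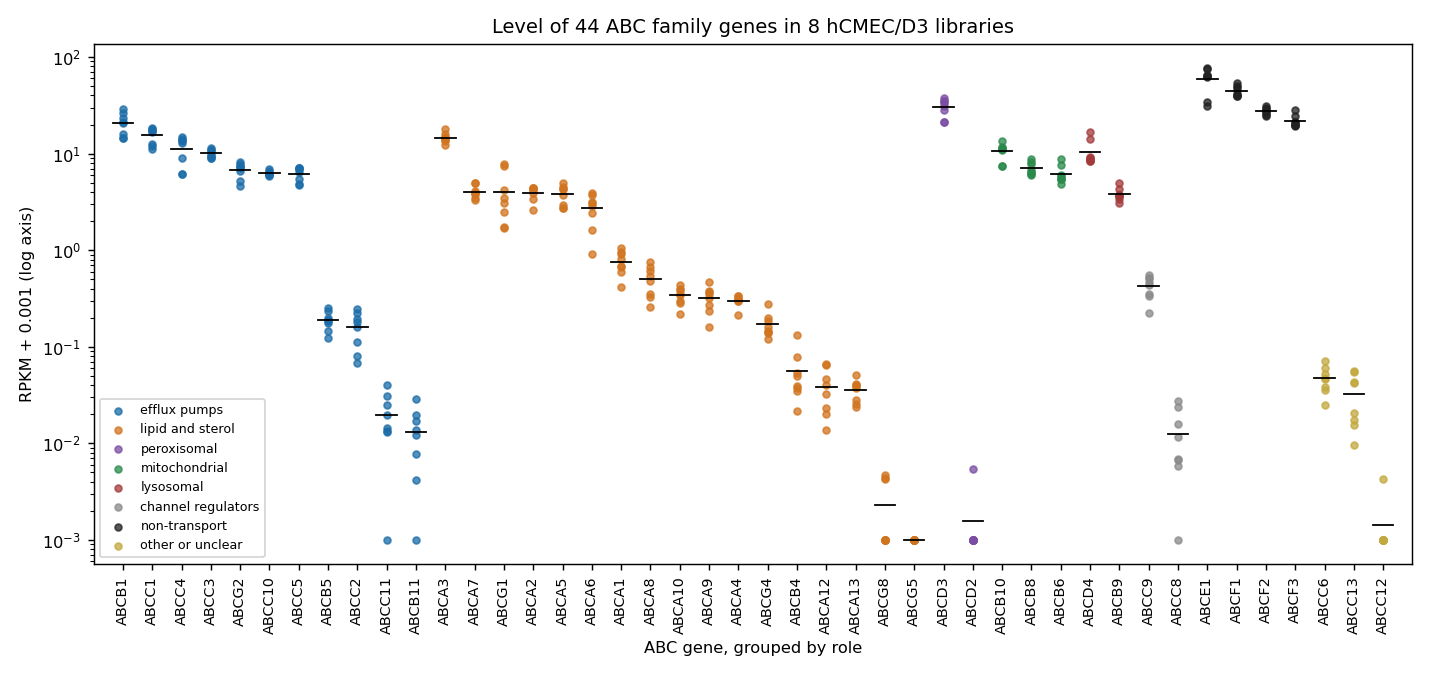
RPKM (log axis, 0.001 added so that 0 can be drawn) of 44 of the 46 ABC genes in each of the 8 libraries, grouped by role. Points are libraries and bars are means. The non-transport members sit at the top, from ABCE1 at 59.4 to ABCF3 at 21.7, and the lipid and sterol transporters spread from ABCA3 at 14.7 down to ABCG5, which had no counts.

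Per length, the family's RNA was mostly that of genes other than efflux pumps. The summed level of the 46 members was 345 ± 21.4 RPKM (SD, n = 8). The 4 non-transport members made up 44.5% ± 3.20 of it and the efflux pumps 22.2% ± 2.88. Lipid and sterol transporters followed with 10.4% ± 1.51, peroxisomal transporters with 10.03% ± 1.12, mitochondrial transporters with 8.49% ± 0.617 and lysosomal transporters with 4.19% ± 1.39. Channel regulators gave 0.125% and the 3 members of other or unclear role 0.0225%. The share of the non-transport members ranged from 41.1% to 50.1% over the libraries and that of the efflux pumps from 18.4% to 25.6%, so these ranges did not overlap. The median member had a mean level of 3.80 RPKM, against 1.39 RPKM for all listed genes with a known length. Among the detected members it was 6.20 RPKM, against 11.4 RPKM for all detected genes.

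**Figure D2:**
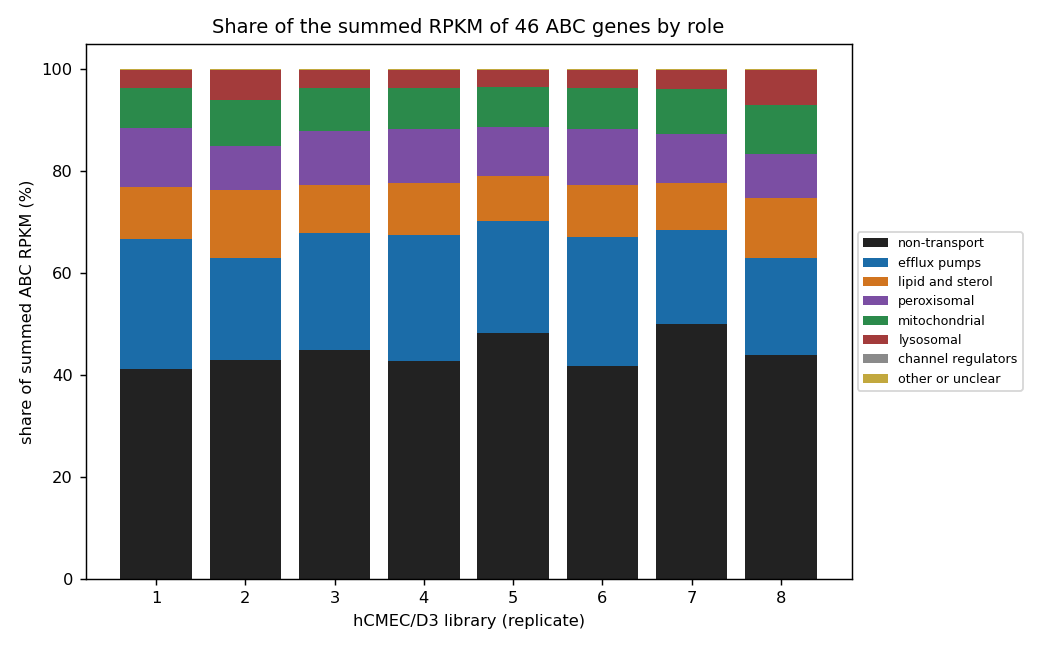
Share of the family's summed RPKM (percent, from 0 to 100) taken by each role in replicates 1 to 8, as stacked bars, 1 per library. Non-transport members took 41.1% to 50.1% and efflux pumps 18.4% to 25.6%, and the lysosomal share was largest in replicates 2 and 8.

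To set a feature of the genome beside the RNA levels, the 250 bases before the transcription start were taken from RefSeq (GRCh38.p14), where 35 of the 46 members had at least 1 such window. The promoters below run from an abundant member to those with almost no counts, 5′ to 3′ on the gene's own strand, with every CpG in capitals. They are those of ABCF1 (chr6:30571192-30571441, plus strand), ABCB1 (chr7:87600885-87601134, minus strand), ABCA6 (chr17:69141896-69142145, minus strand) and ABCC2 (chr10:99782390-99782639, plus strand), and the last is the 131 bases between the RefSeq starts of ABCG5 and ABCG8 (chr2:43838840-43838970, printed on the minus strand, that of ABCG5).
ABCF1: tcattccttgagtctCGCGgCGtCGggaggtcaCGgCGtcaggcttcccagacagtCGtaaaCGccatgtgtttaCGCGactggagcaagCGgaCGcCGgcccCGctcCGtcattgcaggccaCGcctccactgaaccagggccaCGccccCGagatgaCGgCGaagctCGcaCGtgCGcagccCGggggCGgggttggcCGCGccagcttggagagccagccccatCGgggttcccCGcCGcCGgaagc
ABCB1: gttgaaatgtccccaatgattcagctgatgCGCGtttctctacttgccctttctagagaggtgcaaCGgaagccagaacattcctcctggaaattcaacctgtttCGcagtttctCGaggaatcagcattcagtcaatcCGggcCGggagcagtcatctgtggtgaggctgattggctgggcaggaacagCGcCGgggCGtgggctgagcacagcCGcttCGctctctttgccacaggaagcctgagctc
ABCA6: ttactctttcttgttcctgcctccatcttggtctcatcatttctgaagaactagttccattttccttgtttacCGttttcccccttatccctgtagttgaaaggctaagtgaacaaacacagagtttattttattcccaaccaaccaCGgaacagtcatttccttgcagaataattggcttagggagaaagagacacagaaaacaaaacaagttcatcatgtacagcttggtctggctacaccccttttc
ABCC2: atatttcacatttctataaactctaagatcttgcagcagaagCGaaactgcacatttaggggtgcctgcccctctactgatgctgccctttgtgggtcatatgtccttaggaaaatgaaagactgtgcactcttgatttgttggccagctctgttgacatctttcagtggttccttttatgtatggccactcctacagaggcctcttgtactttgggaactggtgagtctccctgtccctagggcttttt
ABCG5 and ABCG8: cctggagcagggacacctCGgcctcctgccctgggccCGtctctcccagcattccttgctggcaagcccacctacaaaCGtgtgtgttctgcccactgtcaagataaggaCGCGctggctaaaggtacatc
The ABCF1 window holds 31 CpG, 1.03 times the number expected from its C and G content (the observed-to-expected ratio). The ABCB1 window shown holds 12, a ratio of 0.62, and a second ABCB1 window (chr7:87713296-87713545) holds 1, a ratio of 0.11. The windows of ABCA6 and ABCC2 hold 2 and 1, with ratios of 0.20 and 0.077, and the interval of ABCG5 and ABCG8 holds 5, a ratio of 0.43.

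CpG-rich promoters are common at genes active in many tissues. A ratio of at least 0.6 in the highest window of a gene was found for 20 of the 24 detected members with a window (83.3%, median ratio 0.90) and for 3 of the 11 that were not detected (27.3%, median 0.34). The same shares over all genes with a window were 87.6% of 8607 detected genes (median 0.86) and 38.2% of 5452 others (median 0.41). The ABC genes thus differed by detection in the same direction as other genes, and ABCA6 lies among the detected members with a CpG-poor window.

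Among the efflux pumps, ABCB1 had the highest level and 7 of 11 members were detected. P-glycoprotein, its product, is the broadest drug pump of the barrier. ABCB1 (chromosome 7, 87133179 to 87342639 on hg19, minus strand, 28 exons) had 29.3, 14.5, 21.4, 23.6, 20.8, 26.0, 16.03 and 14.5 RPKM in replicates 1 to 8, a mean of 20.8 ± 5.47 (SD). On RPKM it was highest in replicate 1 and lowest in replicates 2 and 8. On values that the authors normalised for length and GC content (CQN, log2 scale), replicate 1 was again highest (7.25). Replicate 7 was lowest there (6.72), and replicates 2 and 8 had 6.81 and 6.88. ABCC1, which exports glutathione conjugates, had a mean of 15.5 ± 3.02 RPKM, with a lowest, median and highest library of 11.2, 17.1 and 18.5. ABCC4, which carries cyclic nucleotides and other organic anions, had 11.3 ± 3.63 RPKM, between 6.10 and 14.9 with a median of 13.1. ABCC3, an exporter of conjugated bile salts and glucuronides, had 10.1 ± 1.00 RPKM.

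ABCG2, the breast cancer resistance protein (chromosome 4, 89011416 to 89080011, minus strand, 16 exons), had 7.84, 7.21, 6.68, 7.13, 5.17, 8.15, 4.63 and 7.50 RPKM in replicates 1 to 8, a mean of 6.79 ± 1.26. It was lowest in replicates 5 and 7, and all 8 of its values lay under the lowest value of ABCB1. ABCC10, another drug pump, stood at 6.28 ± 0.322 RPKM. ABCC5, another carrier of cyclic nucleotides, had 6.19 ± 1.03 RPKM (lowest 4.74, median 6.67, highest 7.17). The means of ABCG2, ABCC10 and ABCC5 differed by less than the spread of their ratios within libraries.

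The 4 other efflux pumps were not detected. ABCB5 had a mean of 0.187 RPKM and ABCC2, the canalicular pump of liver, 0.158 RPKM. ABCC11 had 0.0187 RPKM and ABCB11, the bile salt export pump of hepatocytes, 0.0121 RPKM, and each had no counts in at least 1 library. Their low levels stand beside hepatocyte markers whose sum was 0.576 to 1.17 CPM.

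**Figure D3:**
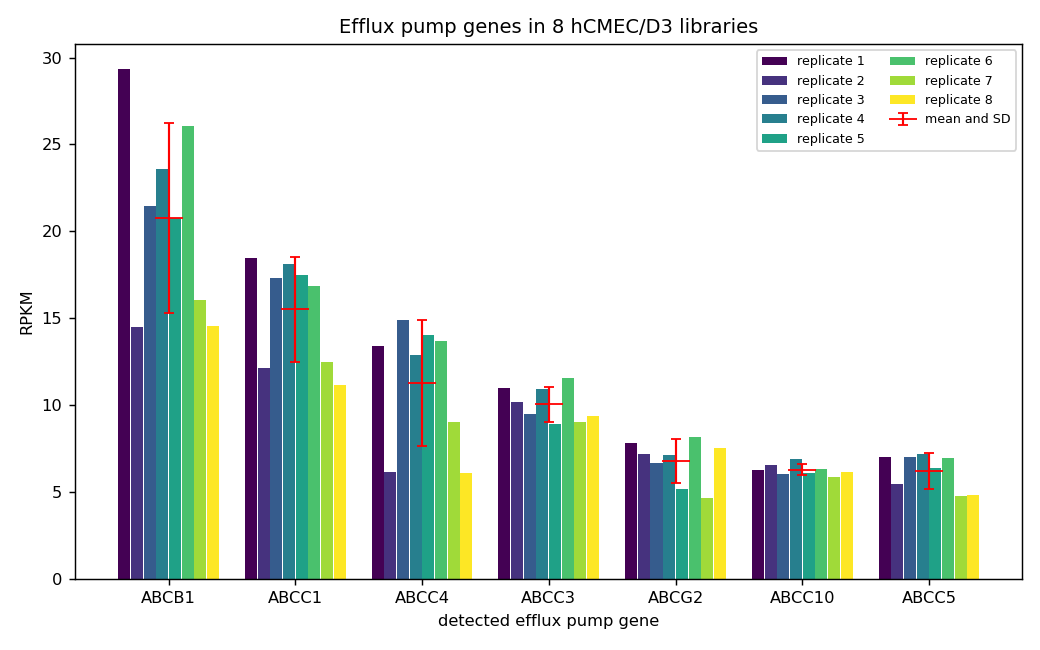
RPKM (linear axis from 0) of the 7 detected efflux pumps, 1 bar per library, with the mean and SD of the 8 libraries in red. ABCB1 is the highest of the 7 in every library, and ABCG2 is lowest in replicates 5 and 7, at 5.17 and 4.63 RPKM.

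The order of the pumps was tested within libraries, as the log2 ratio of (RPKM + 0.1) by an exact permutation of signs over the 8 libraries, two-sided. Adjustment was over all 9 pairs compared in the family, and the smallest p the design allows is 0.00781. ABCB1 exceeded ABCG2 by 1.58 ± 0.39 log2 units (SD), 2.99-fold, in 8 of 8 libraries, and by least in replicates 2 and 8 (1.00 and 0.95), without which it was 1.78. ABCC1 lay under ABCB1 by a log2 ratio of -0.40 ± 0.16 in 8 of 8 libraries. ABCC1 exceeded ABCC4 by 0.51 ± 0.27, and ABCC4 exceeded ABCC5 by 0.79 ± 0.35, each in 8 of 8 libraries. Without replicates 2 and 8 these ratios were 0.37 and 0.97, and with merged exons as the length that of ABCC4 to ABCC5 was 1.19. All 4 differences reached that smallest p in the exact permutation test, with 0.00879 after adjustment. That of ABCC1 and ABCB1 rests on the length scaling, since without it the log2 ratio was -0.08 (exact permutation, adjusted p = 0.25).

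ABCB1 also exceeded its neighbour ABCB4, the phosphatidylcholine floppase of the bile canaliculus, which lies 28159 nt away on the same strand. ABCB4 had 8 to 38 counts per library and a mean of 0.0547 ± 0.0346 RPKM, with a lowest, median and highest of 0.0206, 0.0434 and 0.130. The log2 ratio of ABCB1 to ABCB4 was 7.06 ± 0.23 in 8 of 8 libraries (exact permutation p = 0.00781, adjusted p = 0.00879). At so low a level it depends on the 0.1 RPKM added, which understates it, and with 1 RPKM added it was 4.33. The counting is not stated to use strand, and the span of ABCB1 overlaps that of RUNDC3B on the opposite strand. How reads in a stretch shared by both genes were treated is not stated.

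The lipid and sterol transporters, the role with the most members (17), ranged from ABCA3 at 14.7 RPKM to ABCG5 with no counts. ABCA3, which loads phospholipid into lamellar bodies of lung epithelium, had 14.7 ± 1.70 RPKM (lowest 12.4, median 14.6, highest 17.9). It was the most abundant member of subfamily A. ABCA7, a phospholipid exporter, stood at 4.05 ± 0.609 RPKM (lowest 3.31, median 3.90, highest 4.97). ABCA2, a lysosomal lipid transporter, had 3.95 ± 0.658 and ABCA5 3.78 ± 0.873 RPKM, and these means, with that of ABCG1, were within the spread of their ratios.

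ABCG1 and ABCA6 had the widest range between libraries of the 31 detected members, and on CPM and RPKM ABCA1 shared their lowest libraries. ABCG1, which exports cholesterol to lipoprotein particles (chromosome 21, 43619799 to 43717354, plus strand, 15 exons), had 4.19, 7.52, 2.50, 3.47, 1.70, 3.09, 1.75 and 7.78 RPKM in replicates 1 to 8, a mean of 4.00 ± 2.40. Replicates 2 and 8 were the highest and replicates 5 and 7 the lowest, and the highest was 4.58 times the lowest. ABCA6, a subfamily A gene whose expression responds to cholesterol, had 3.69, 3.07, 2.89, 3.15, 1.63, 3.95, 0.906 and 2.41 RPKM, a mean of 2.71 ± 1.03. Its lowest libraries were again 7 and 5, with the highest 4.36 times the lowest. ABCA1, which hands cholesterol and phospholipid to apolipoprotein A-I (chromosome 9, 107543284 to 107690527, minus strand, 50 exons), had 1.06, 0.813, 0.662, 0.902, 0.595, 0.958, 0.414 and 0.686 RPKM, a mean of 0.762 ± 0.212, also lowest in replicates 7 and 5.

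**Figure D4:**
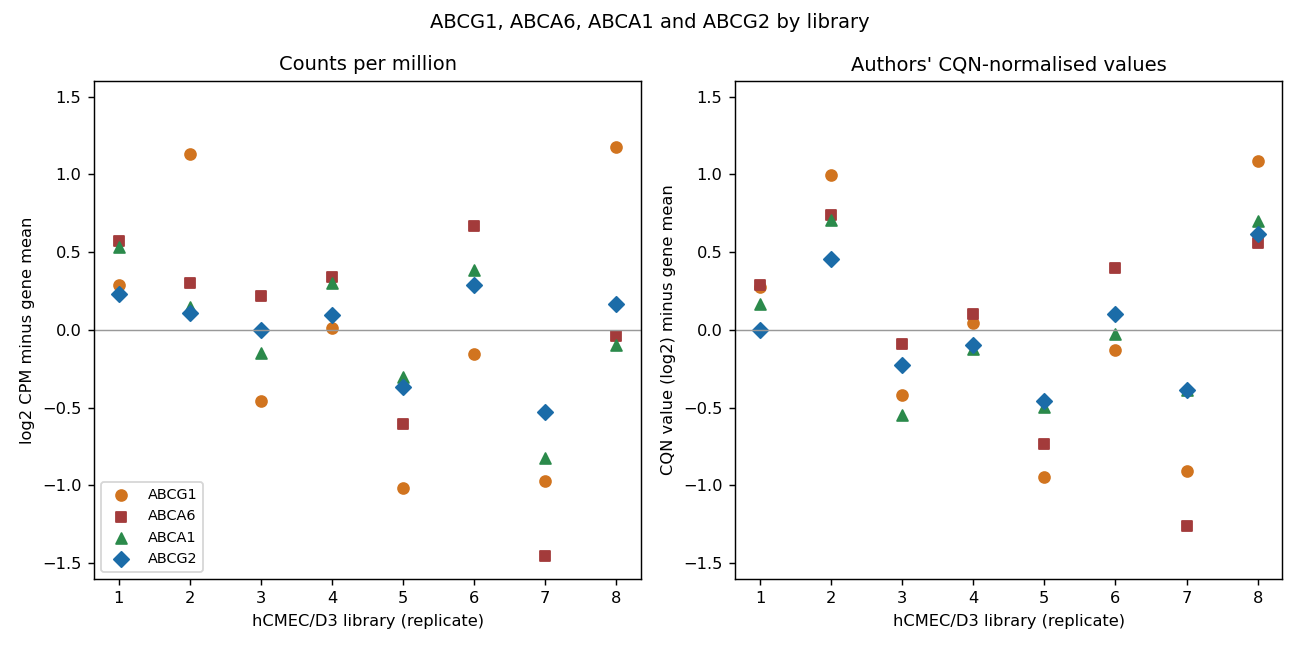
Deviation from the gene's mean over 8 libraries, on log2 CPM (left) and on the authors' CQN values (log2 scale, right), for ABCG1, ABCA6, ABCA1 and ABCG2 in replicates 1 to 8. Points are libraries. All 4 genes lie below their mean in replicates 5 and 7 on both scales, and ABCG1 is highest in replicates 2 and 8.

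Whether a gene varied more than others of like abundance was tested in edgeR by goodness of fit to the trended dispersion, Benjamini-Hochberg adjusted over all 11980 detected genes. ABCG1 was the 1 of 31 members past an adjusted p of 0.05 (adjusted p = 4.91e-04), against 4.66% of all detected genes. Its biological coefficient of variation, which edgeR estimates per gene with shrinkage towards the trend, was 50.4%, where the trend gave 25.5%. At an unadjusted p under 0.05 there were 5 of 31 members, against 13.1% of all genes. These were ABCG1, ABCA6 (adjusted p = 0.0640), ABCC4 (adjusted p = 0.230), ABCA8 (adjusted p = 0.323) and ABCE1 (adjusted p = 0.369), all by edgeR. Neither share was far from its background.

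The call of ABCA6 depended on the processing. With each library's trend on length and GC content removed, 2 of 31 members passed, ABCG1 (edgeR adjusted p = 2.30e-07) and ABCA6 (edgeR adjusted p = 1.14e-04), against 6.53% of all genes. With replicates 2 and 8 left out, 3 members passed, ABCA6 (edgeR adjusted p = 6.18e-09), ABCG1 and ABCA1 (edgeR adjusted p = 0.0142), against 2.75% of all genes. Against DESeq2's fitted trend the same 5 members named above passed, and so did 23.5% of all genes. Leaving out 1 library, the adjusted p of ABCA6 by edgeR was 0.0266 without replicate 2, 0.00198 without replicate 8 and 1.00 without replicate 7. ABCG1 passed without each library in turn, with edgeR adjusted p-values of 2.28e-04 to 0.0129.

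On the values that the authors normalised for length and GC content (CQN, log2 scale), ABCG1 kept the same highest and lowest libraries. It had 4.20, 4.92, 3.51, 3.97, 2.97, 3.79, 3.01 and 5.01 in replicates 1 to 8, and ABCA6 had 4.07, 4.51, 3.69, 3.88, 3.05, 4.18, 2.52 and 4.34. Both were again lowest in replicates 5 and 7. ABCA1 was lowest in replicate 3 on this scale (2.16), followed by replicates 5 (2.21) and 7 (2.32), so it did not share the pair of lowest libraries. Its highest libraries on this scale were 2 and 8 (3.41 in each), as they were for ABCG1 and ABCA6. On CPM those of ABCA1 and ABCA6 were replicates 1 and 6. Replicates 5 and 7 held the lowest CPM values of 5 of 31 detected members, namely ABCA1, ABCA6, ABCC3, ABCG1 and ABCG2 (16.1%), and of 5.13% of all detected genes. On CQN values they were lowest for 8 of 31 members (25.8%) and for 9.65% of all genes. These counts were taken after the values were seen and carry no test.

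Although ABCA1 is the better known cholesterol exporter, ABCG1 had more RNA per length. The log2 ratio of ABCA1 to ABCG1 was -2.09 ± 0.71 with ABCA1 lower in 8 of 8 libraries (exact permutation p = 0.00781, adjusted p = 0.00879). With merged exons as the length it was -1.20, on CQN values -1.21, with a pseudocount of 1 -1.38 and without replicates 2 and 8 -1.72. Without length scaling it was -0.42 (exact permutation, adjusted p = 0.176), since the ABCA1 transcript (10408 nt) is longer than that of ABCG1 (2976 nt).

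Liver X receptors, which sense oxysterols, switch on both genes through a repeated AGGTCA-like element. The ABCA1 promoter window (chr9:104928156-104928405, minus strand, GRCh38.p14) shows such a sequence, printed with the repeat in capitals as it reads on this strand.
ABCA1: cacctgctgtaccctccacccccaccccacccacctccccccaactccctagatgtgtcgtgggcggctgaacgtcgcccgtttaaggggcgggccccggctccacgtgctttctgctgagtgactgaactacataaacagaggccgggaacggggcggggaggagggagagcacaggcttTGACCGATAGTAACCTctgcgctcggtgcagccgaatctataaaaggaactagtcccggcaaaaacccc
The capitals begin 69 bases before the start and match, on the opposite strand, the letters AGGTNANNNNNGGTCA, which were chosen with the ABCA1 element known. Searched on both strands, these letters were in 28 of 35116 windows (0.0797%) and, of 53 windows of ABC genes, in that of ABCA1. No window of ABCG1 was searched. N stands for any base. The strict repeat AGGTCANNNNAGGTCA, each match of which also fits the looser letters, was in 0.0142% of windows and in 0 of 53 ABC windows. The half-site AGGTCA, which the strict repeat contains, was in 12.1% of all windows and in 2 ABC windows, of ABCF1 and ABCG2. The E-box CACGTG, which MYC and USF factors read among others, was in 6.34% of all windows and 9 of 53 ABC windows. The GC box GGGCGG was in 42.6% of all windows and in 25 of 53 ABC windows. These matches describe letters and not binding.

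Of the genes that work with ABCA1 and ABCG1, 10 of 11 were detected, against 51.3% of all listed genes. Above the variation trend there were 0, against 4.66% of all detected genes. In a list of this size 0 is near that share, here and in the partner lists below. NPC2, which hands cholesterol out of the lysosome, had 266 RPKM and SREBF2, a transcription factor that raises cholesterol synthesis genes, 45.7 RPKM. APOA1, the acceptor of ABCA1, was not detected. The liver X receptor genes NR1H2 and NR1H3 had 23.9 and 2.76 RPKM. MYLIP, a further liver X receptor target, had 9.71, 17.6, 6.92, 9.22, 6.58, 9.13, 6.77 and 15.5 CPM in replicates 1 to 8. It was highest in replicates 2 and 8 and low in 5 and 7, where ABCG1 was also lowest. ABCA1 was highest in replicate 1 on CPM (11.1, with 8.46 and 7.14 in replicates 2 and 8), but in replicates 2 and 8 on CQN values. MYLIP was neither among the 3 highest genes of this list nor above the trend, so it was given outside the rule for partner genes. The likeness to ABCG1 carries no test. The part of sterol supply in these values was not tested.

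The remaining genes of subfamily A were low. ABCA8, ABCA9, ABCA6, ABCA10 and ABCA5 form a row on chromosome 17, all on the minus strand, with gaps of 19239, 17710 and 6132 nt and an overlap of 381 nt between ABCA10 and ABCA5. Within this row the mean level was 0.501 RPKM for ABCA8, 0.317 for ABCA9, 2.71 for ABCA6, 0.339 for ABCA10 and 3.78 for ABCA5, so the level did not follow position. Because ABCA10 and ABCA5 overlap, reads in the shared stretch cannot be assigned to either. ABCA4, the retinoid flippase of the eye, had 0.300 RPKM. ABCA12 and ABCA13 were not detected, at 0.0374 and 0.0349 RPKM.

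The difference between roles was taken within each library as the difference of the medians of log2(RPKM + 0.1) over all members. The median efflux pump lay 3.81 ± 0.16 log2 units above the median lipid and sterol transporter, in 8 of 8 libraries. Over detected members it was 1.93. The median non-transport member lay 2.38 ± 0.32 above the median efflux pump in 8 of 8 libraries. The peroxisomal median lay 0.53 ± 0.34 below the efflux median in all 8 libraries with every member counted (-0.53), but 0.29 above it among detected members and 0.77 above it on CQN values. With 3 peroxisomal members, 1 of them at or near 0, this order depends on whether undetected members are counted. These are descriptions over the members and have no p.

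Peroxisomal transporters carry fatty acids and fatty acyl-CoA into the peroxisome. ABCD3, which takes up branched-chain and bile acid precursors (chromosome 1, 94883933 to 94984219, plus strand, 23 exons), had 37.8, 21.1, 34.98, 33.6, 31.2, 35.1, 28.1 and 21.5 RPKM in replicates 1 to 8. Its mean was 30.4 ± 6.34. It was lowest in replicates 2 and 8. ABCD2, a further fatty acid transporter, had at most 2 counts in 1 library. Of 9 genes for peroxisome import and beta-oxidation, 9 were detected, against 51.3% of all listed genes. Above the trend were 0, against 4.66% of all detected genes. The list was led by SCP2 (40.2 RPKM), HSD17B4 (26.9) and PEX19 (19.6).

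All 4 mitochondrial members were detected and took 7.87% to 9.61% of the family's RNA. ABCB10, of the inner membrane and needed for haem synthesis, had 10.6 ± 2.09 RPKM (lowest 7.46, median 11.2, highest 13.4). ABCB8 had 7.04 ± 1.03 RPKM (lowest 6.04, median 6.57, highest 8.74). ABCB6, linked to porphyrin transport, had 6.20 ± 1.34 RPKM. Of 10 partner genes in iron-sulfur and haem synthesis, 10 were detected, against 51.3% of all listed genes. Above the trend were 0, against 4.66% of all detected genes. The list was led by ISCU (58.6 RPKM), GLRX5 (56.1) and SLC25A28 (28.7).

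In the lysosome, ABCD4 works with LMBRD1 to release cobalamin. It had 9.19, 14.1, 8.84, 9.001, 8.33, 8.46, 8.68 and 16.8 RPKM in replicates 1 to 8, a mean of 10.4 ± 3.20. Replicates 2 and 8 were high and the other 6 lay between 8.33 and 9.19. ABCB9, a peptide transporter, had 3.82 ± 0.577 RPKM (lowest 3.05, median 3.73, highest 4.93). The share of the role in the family was 6.91% in replicate 8 and 5.89% in replicate 2, against 3.32% to 3.67% in the others. All 5 genes of the cobalamin list were detected, against 51.3% of all listed genes. Above the trend were 0, against 4.66% of all detected genes. The list was led by TCN2 (97.0 RPKM), MMADHC (92.7) and CD320 (57.3).

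The 4 non-transport members were among the 6 ABC genes with the highest mean level, with ABCD3 and ABCB1. ABCE1, which splits ribosomes after termination (chromosome 4, 146019156 to 146050676, plus strand, 18 exons), had 63.9, 34.3, 75.9, 65.6, 77.8, 63.7, 62.9 and 30.9 RPKM in replicates 1 to 8. Its mean was 59.4 ± 17.5, and replicates 2 and 8 lay apart below the other 6. ABCF1, which acts with eIF2 in initiation, had 41.9, 48.8, 40.4, 39.3, 45.9, 39.9, 53.6 and 49.8 RPKM, a mean of 44.9 ± 5.38. ABCF2 and ABCF3 had 27.6 ± 2.37 and 21.7 ± 3.22 RPKM.

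ABCE1 exceeded ABCF1 in 6 of 8 libraries, by a log2 ratio of 0.34 ± 0.61, which did not pass the test (exact permutation p = 0.148, adjusted p = 0.148). It was below ABCF1 in replicates 2 and 8. Without replicate 8 the ratio was 0.49 (exact permutation, adjusted p = 0.0469) and without both 0.65. Those are the 2 libraries of the opposite sign, so leaving them out fixes the outcome of the test, which then decides nothing. With merged exons as the length the ratio of ABCE1 to ABCF1 was 0.056 (exact permutation, adjusted p = 0.805). ABCE1 overlaps ANAPC10 on the opposite strand. Of 8 ribosome recycling and translation partners, 8 were detected, against 51.3% of all listed genes. Above the trend were 0, against 4.66% of all detected genes. The list was led by ETF1 (61.1 RPKM), EIF2S1 (52.3) and EIF5 (32.8).

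Channel regulators and members of unclear role were scarce. ABCC9, a sulfonylurea receptor of potassium channels in vessel wall cells, had 0.423 ± 0.112 RPKM (lowest 0.221, median 0.449, highest 0.553). ABCC8, the sulfonylurea receptor of beta cells, had 0.0114 RPKM and a highest library of 0.0266. ABCC6, lost in pseudoxanthoma elasticum, had 0.0462 RPKM (lowest 0.0237, median 0.0460, highest 0.0706) and has near-identical pseudogenes, so its level is uncertain. It lies on the opposite strand 6491 nt from ABCC1, which stood at 15.5 RPKM. ABCC13, which the annotation lists as non-coding, had 0.0315 RPKM (lowest 0.00872, median 0.0307, highest 0.0545).

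The sterol transporters of intestine and liver, ABCG5 and ABCG8, lie head to head on chromosome 2 with 144 nt between them and were at or near 0. ABCG5 had 0 counts in all 8 libraries, which allows up to 0.0665 to 0.0880 CPM per library at 3 read pairs, counting error only. ABCG8 had at most 2 counts in 3 libraries and ABCC12 at most 2 in 1. ABCG4, a relative of ABCG1, had 0.170 RPKM and was not detected.

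The 31 detected members could be put in order by level, but neighbours were often not separable. Of 30 neighbouring pairs in the order, 10 had a gap larger than 1 SD of their within-library log2 ratio and 20 did not. The separated steps included ABCF1 above ABCD3, ABCB1 above ABCC1, ABCC3 above ABCB8 and ABCA6 above ABCA1. The median highest-to-lowest ratio over libraries was 1.76 for the detected members and 1.70 for all detected genes. Of the 31 members, 14 had their highest (6) or lowest (8) CPM in replicate 8 (45.2%), against 67.0% of all detected genes. Replicate 7 was the lowest for 8 members (25.8%), against 9.22% of all detected genes. These counts carry no test. In replicate 8 the 11 detected members over 6000 nt had a median deviation of -0.33 and the 10 under 4000 nt one of 0.34, on log2 CPM. The range over libraries was smaller on CQN values than on CPM in 25 of the 31 (80.6%), against 74.8% of all detected genes.

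**Figure D5:**
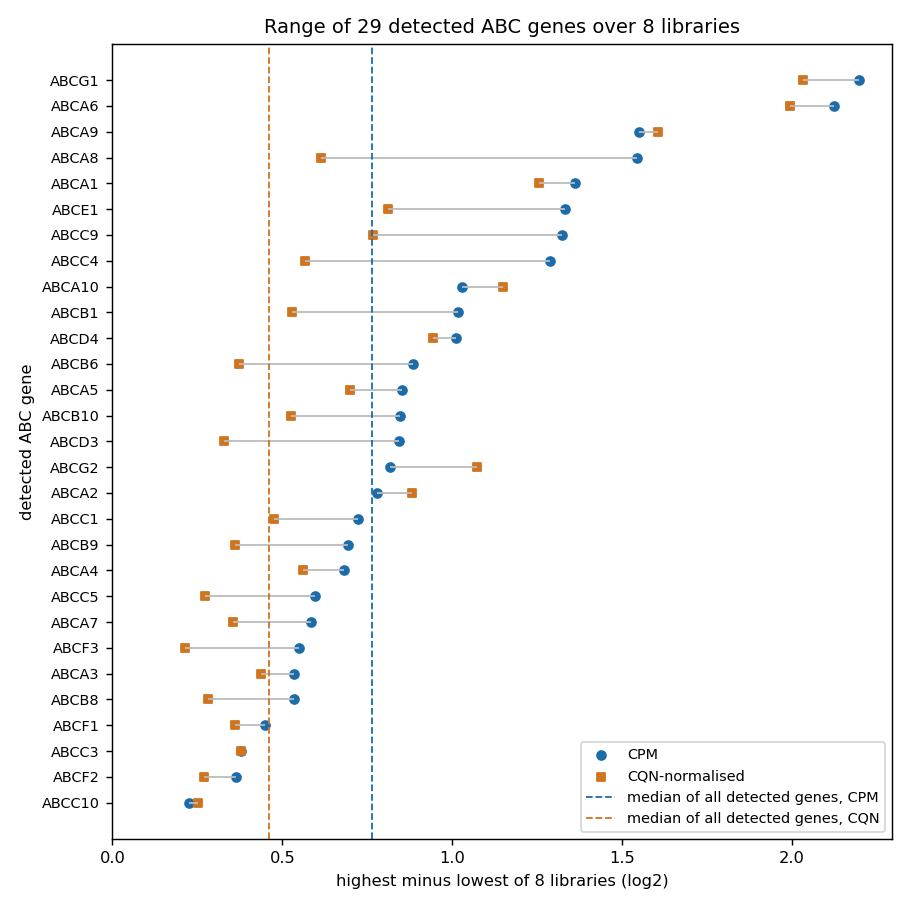
Highest minus lowest of the 8 libraries for 29 of the 31 detected members, on log2 CPM (circles) and on the authors' CQN values (squares), with dashed lines at the medians of all detected genes (0.76 and 0.46). ABCG1 and ABCA6 have the widest ranges on both scales, and 23 of the 29 members drawn have a smaller range on CQN values.

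Regulators and anchors of the efflux pumps were mostly present. Of 17 receptors and sensors, 14 were detected, against 51.3% of all listed genes. PXR (NR1I2) and CAR (NR1I3), the xenobiotic receptors that raise ABCB1 in liver, were not, at 0.157 and 0.294 RPKM, and PPARG stood at 0.629 RPKM. HIF1A (50.6 RPKM) and NFE2L2 (49.7) were the highest. HIF1A was the 1 gene above the variation trend among 67 detected partner genes of 73 (edgeR adjusted p = 0.00262), against 4.66% of all detected genes. It had 254, 105, 269, 269, 233, 264, 137 and 65.2 CPM in replicates 1 to 8. It was lowest in replicates 8, 2 and 7, the libraries with a negative length slope. On CQN values the same 3 libraries were lowest (6.69, 7.26 and 7.33, against 7.96 to 8.13 in the others). The cause was not tested. Of 10 anchors and scaffolds 9 were detected, led by MSN (391 RPKM), which ties ABCB1 to actin, CAV1 (315) and PTRF (289).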

How the data were processed

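Polyadenylated RNA of 8 hCMEC/D3 libraries was measured, 1 group. The authors deposited raw counts per gene, as whole numbers that were not normalised, and CQN-normalised values on a log2 scale for 13962 genes, per the file headers and, for the log2 scale, as judged from the values. The submitters' processing notes name CASAVA 1.9, TopHat2 2.0.6, HTSeq and hg19, with no use of strand and no CQN settings. All 186768 counts were even. Replicate numbers tied all 16 value columns to samples, with 0 other columns. Table starts were read as counting from 0 and are printed 1-based.

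CPM used TMM library sizes (edgeR 4.0.16, R 4.3.3). RPKM used the canonical transcript of GENCODE 44 lifted to GRCh37. Detection was 1 CPM in all 8 libraries. Variation used edgeR's goodness-of-fit test (intercept only, trended dispersion) over 11980 detected genes, with Benjamini-Hochberg adjustment and a threshold of 0.05, and was tested on simulated data. DESeq2 1.42.0 size factors and its fitted trend were alternatives. Ratios used log2(RPKM + 0.1) and 256 sign patterns. Depth was 69388544 to 90205244 counts, so counting error matters for the lowest genes alone. The floor for a count of 0 was 3 read pairs.

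The members, roles, pairs and lists were chosen with earlier results of these data known. Values per library were given for genes of the 9 pairs, the 2 highest members of each role, members above the trend and detected members whose highest library was at least 3 times the lowest, and of each partner list the 3 highest genes and any above the trend. MYLIP was an exception, given outside this rule. Some members, pairs and partner genes are not reported here by name, though they are in the counts and sums. Protein sequences were not used here. Promoter windows were RefSeq's, on GRCh38.p14, and share no coordinates with the hg19 positions.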

Additional observations from a re-analysis of the deposited data

Results flagged for a closer look

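For 48 sets of 8 library values (the CPM of 31 detected members, the log2 ratios of 9 pairs and the shares of 8 roles), the gap between an extreme library and its nearest neighbour was compared with the whole range, against Dixon's 95% critical value. The level of ABCA4, the retinoid flippase of the eye, was set apart: replicate 8 had 1.54 CPM and the next lowest library 2.15 CPM, a gap of 0.662 of the range. Chance sets apart about 1 in 20 independent groups, so 1 of 48 is no more than chance would give. The 48 sets share values and are not independent. The rule also misses libraries that deviate together, as replicates 2 and 8 did in ABCE1 and ABCD4. The count therefore does not show that outlying libraries are absent. ABCA4 has a long transcript (7328 nt), and replicate 8 was the library with the most negative length slope (-0.33). On the authors' CQN values, which are adjusted for length and GC content, replicate 8 was not the lowest (1.21), and replicate 5 was (0.96).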

How the results depend on the processing

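Samples could not be paired between groups because all 8 libraries form 1 group, and the ratios paired genes within libraries. The number of detected members was 31 to 37 under all alternatives for detection, scaling and left-out libraries. The number above the variation trend, 1, was 5 against DESeq2's fitted trend, 2 with the length and GC trend removed, 1 to 2 with 1 library left out and 3 with replicates 2 and 8 left out, an alternative chosen after seeing the data. For ABCA6 the adjusted p was 2.23e-05, 1.14e-04, 0.0266 to 0.00198 (without replicate 2 or 8) and 6.18e-09 under these settings. Of 125 alternative log2 ratios, 121 kept their direction and side of the threshold and 0 reversed. Without length scaling that of ABCC1 to ABCB1 was -0.082 and that of ABCA1 to ABCG1 -0.42, neither past the threshold. That of ABCE1 to ABCF1 ranged from 0.26 to 0.49 with 1 library left out and was 0.65 without replicates 2 and 8. The efflux minus lipid and sterol difference was 2.43 with a pseudocount of 1, 1.93 over detected members and 2.57 on CQN values. The non-transport minus efflux difference was 1.82 over detected members. The peroxisomal minus efflux difference was -0.98 on CPM, 0.29 over detected members and 0.77 on CQN values, where members without a value drop out. The causes of the other changes were not tested. ABCB4 has no CQN value, so its ratio was not run on that scale. Depth limits the members with at most 38 counts in any library: ABCB4, ABCC6, ABCC13, ABCC11, ABCB11, ABCC8, ABCG8, ABCD2, ABCC12 and ABCG5.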

Other observations

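Some ABC genes carry other symbols and fall outside the rule. TAP1 and TAP2, which together carry peptides into the endoplasmic reticulum for presentation on class I molecules, had 54.5 ± 12.03 and 35.1 ± 2.83 RPKM (SD, n = 8). Their means would place TAP1 next to ABCE1 and TAP2 between ABCF1 and ABCD3 in the order of the family. Of the 3 genes of this list, 2 were detected, against 51.3% of all listed genes. Above the variation trend were 0, against 4.66% of all detected genes.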
